A study of Homo sapiens with 8 samples.

Results

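The zinc finger gene cluster at 19p12 is a run of ZNF genes on the short arm of human chromosome 19, beside the centromere. Its 37 members were taken by gene symbol from the deposited table of 60646 genes, as the ZNF genes of a stretch that begins near 19 Mb, and they span 4.46 Mb from the start of ZNF101 to the end of ZNF254 (hg38). RNA-seq counts were compared between 4 Knockout samples and 4 Wild-type samples of MDA-MB-231 cells. The Knockout cells carry the genotype DOT1L/+ KO and were edited with a gRNA directed at the gene's first exon, and the Wild-type cells have the unedited allele. MDA-MB-231 is an established line from a triple-negative breast cancer, and both groups were grown in DMEM with serum and collected a day after plating. The number of edited alleles is not stated in the labels, nor whether the knockout is 1 clone, nor whether the replicates were separate cultures, so the spread between replicates may be technical. The region was chosen by its measured fall, the log2 change of its genes between Knockout and Wild-type in these same samples. The changes of the members are therefore given as a description. Where members are counted as called, the call only sorts them by the fit across all genes, and it is no evidence about the region.

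Most genes of this cluster encode KRAB zinc finger proteins, which bind DNA through tandem fingers of the C2H2 type and recruit the corepressor TRIM28 through the KRAB domain. TRIM28 in turn brings the methyltransferase SETDB1, which places H3K9me3, and many of these proteins bind and silence transposable elements. The genes themselves arose by tandem duplication, largely in primates, and their bodies are known to carry H3K9me3. DOT1L methylates H3K79 in the bodies of transcribed genes.

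The members share promoter letters as well as coding sequence. RefSeq promoter windows on GRCh38.p14, from 250 bases before to 50 bases after the annotated start, were found for 29 of the 37 members and not for ZNF506, ZNF253, ZNF738, ZNF676, ZNF729, ZNF98, ZNF99 and ZNF728. The 5 windows printed here are those of the members with the 2 largest falls (ZNF43 and ZNF681), of 2 members that hardly moved (ZNF726 and ZNF14), and of ZNF91, chosen after its values were seen because its window was the closest match to that of ZNF726. They lie at chr19:21836133-21836432 (minus strand), chr19:23758842-23759141 (minus), chr19:23395422-23395721 (minus), chr19:23914636-23914935 (plus) and chr19:19733063-19733362 (minus). Each is written 5′ to 3′ along its gene, with CpG dinucleotides in capitals.
ZNF43: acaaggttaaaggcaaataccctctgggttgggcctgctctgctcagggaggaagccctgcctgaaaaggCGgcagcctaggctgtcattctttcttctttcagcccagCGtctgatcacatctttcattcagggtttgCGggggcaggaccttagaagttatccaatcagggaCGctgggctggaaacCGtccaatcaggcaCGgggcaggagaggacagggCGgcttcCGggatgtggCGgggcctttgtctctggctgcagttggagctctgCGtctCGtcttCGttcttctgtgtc
ZNF681: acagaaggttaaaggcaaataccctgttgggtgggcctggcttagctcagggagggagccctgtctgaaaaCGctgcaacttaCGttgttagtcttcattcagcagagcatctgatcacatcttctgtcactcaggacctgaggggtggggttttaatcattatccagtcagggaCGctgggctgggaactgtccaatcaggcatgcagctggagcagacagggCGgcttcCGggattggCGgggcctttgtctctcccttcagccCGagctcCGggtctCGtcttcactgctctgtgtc
ZNF91: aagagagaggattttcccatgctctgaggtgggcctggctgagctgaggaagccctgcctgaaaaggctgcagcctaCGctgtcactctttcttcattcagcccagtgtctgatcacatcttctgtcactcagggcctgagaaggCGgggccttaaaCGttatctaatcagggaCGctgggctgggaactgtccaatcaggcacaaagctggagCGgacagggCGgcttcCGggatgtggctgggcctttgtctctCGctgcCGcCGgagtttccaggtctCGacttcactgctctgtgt
ZNF726: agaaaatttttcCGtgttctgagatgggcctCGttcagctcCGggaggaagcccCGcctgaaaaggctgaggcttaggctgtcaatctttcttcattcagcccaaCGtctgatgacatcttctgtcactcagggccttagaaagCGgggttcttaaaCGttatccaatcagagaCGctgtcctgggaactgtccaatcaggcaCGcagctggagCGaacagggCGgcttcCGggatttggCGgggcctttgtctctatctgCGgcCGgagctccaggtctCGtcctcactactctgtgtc
ZNF14: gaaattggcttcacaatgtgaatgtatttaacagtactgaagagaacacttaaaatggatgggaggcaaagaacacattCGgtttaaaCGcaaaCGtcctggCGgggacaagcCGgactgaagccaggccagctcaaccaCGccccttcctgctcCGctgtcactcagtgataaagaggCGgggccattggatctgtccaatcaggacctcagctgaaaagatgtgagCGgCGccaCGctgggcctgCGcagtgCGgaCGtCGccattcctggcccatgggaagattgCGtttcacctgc
The ZNF43, ZNF681, ZNF91 and ZNF726 windows resemble each other over most of their length, and the ZNF14 window less so. ZNF91 and ZNF726 were 84.3% identical with gaps counted as differences, and ZNF43 and ZNF681 were 78.5% identical. Over all 406 pairs of member windows the median identity was 75.8%, while the ZNF14, ZNF101 and ZNF682 windows had median identities of 52.0%, 53.8% and 51.5% with the others. The RefSeq starts of ZNF43, ZNF682, ZNF254, ZNF730 and ZNF429 lie inside the longer genes annotated by GENCODE. The window of each of these is therefore at one of several possible starts.

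The libraries held 46713622 to 49308625 counts in the knockout group and 40103408 to 50031412 in the wild-type group, so 1 count stood for 0.0198 to 0.0211 CPM and 0.0211 to 0.0250 CPM (CPM, counts scaled to library size after trimmed-mean normalization). DOT1L itself stood at 85.3, 78.1, 83.2 and 92.3 CPM in Knockout replicates 1, 2, 3 and 5, and at 115, 101, 103 and 118 CPM in the Wild-type ones. It averaged 84.7 ± 5.91 CPM in the knockout and 109 ± 8.52 CPM in wild-type (SD, n = 4 each), a log2 change of -0.37 (edgeR quasi-likelihood test, adjusted p = 2.83e-05). The targeted gene was lower in all 4 knockout samples, and the groups did not overlap. The line's markers VIM, CD44, AXL, MET and EGFR ranged from 287.6 to 3871 CPM in the knockout and from 310.1 to 2941 CPM in wild-type. ESR1, PGR, CDH1, GATA3, FOXA1 and EPCAM were taken as genes that this line should lack or hold at low levels. ESR1, PGR and CDH1 averaged at most 0.538 CPM in the knockout and 0.262 CPM in wild-type. GATA3, FOXA1 and EPCAM were not absent, at 3.98 to 8.13 CPM across the groups. ESR1 and GATA3 were called higher in the knockout (edgeR, adjusted p = 0.0333 and 0.0195), though the groups overlapped for ESR1. PGR and CDH1 were not tested, with 18 and 41 counts over the knockout group and 5 and 1 over wild-type. PTPRC, PECAM1 and ALB, markers of other cells, averaged at most 0.592 CPM in the knockout and 0.563 CPM in wild-type. Of 19877 genes tested, 47.6% were called in either direction at an adjusted p below 0.05.

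Of the 37 members, 26 had enough counts to be tested, 23 of these were called lower in the knockout, 0 higher and 3 did not pass. Over all tested genes 23.6% were called lower and 23.9% higher, and since the region was chosen for its fall nothing is read from the difference. Knockout values lay wholly below wild-type values for the same number, 23 members, against 22.1% of all tested genes. Of the 26, 14 passed the filter on low counts through the wild-type libraries alone, so these 14 had to differ between the groups, and their count supports nothing. The median log2 change of the tested members was -3.93, beside 0.00 over all tested genes. Summed over the 37 members, the level was 81.8, 86.2, 87.2 and 85.0 CPM in knockout replicates 1, 2, 3 and 5, and 248, 256, 247 and 269 CPM in the wild-type ones. The knockout sum was 33.3% of the wild-type sum, and the groups were far apart. A bulk library cannot tell fewer cells that express a gene from less RNA per cell.

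**Figure D1:**
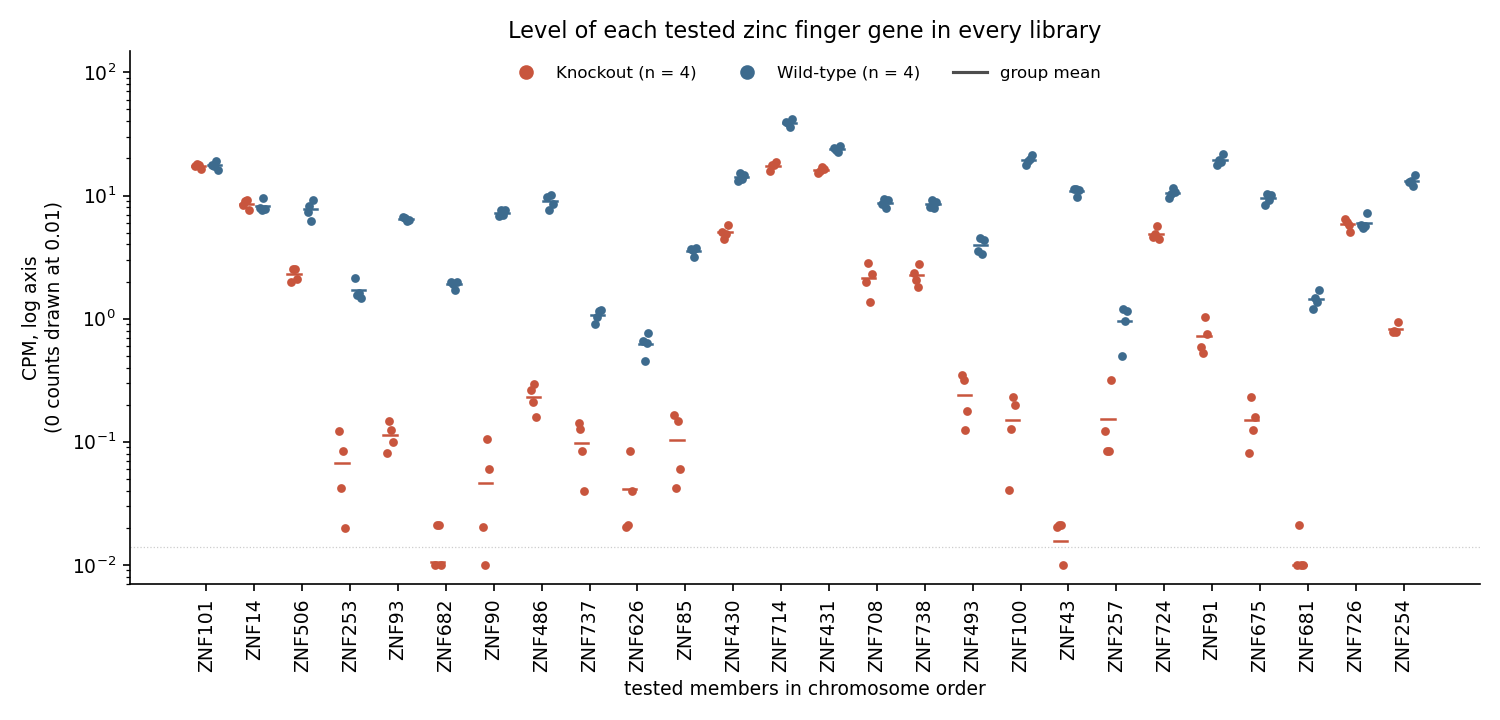
Level of each of the 26 tested members in every library, in chromosome order, as CPM on a log axis with 0 counts drawn at 0.01. Knockout points (red, left of each pair, n = 4) lie below all wild-type points (blue, right, n = 4) for 23 members and mix with them for ZNF101, ZNF14 and ZNF726, and bars mark group means.

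The members' changes spread over a wide range. Of the 26, 22 were called lower by at least 2-fold and 0 higher by as much, beside 2.64% and 6.72% of all tested genes. In 15 members the knockout level was at least 8-fold lower, at 0.144% to 9.21% of the wild-type level, and 0.579% of all tested genes were called lower by that much. In 7 members it was between 2-fold and 8-fold lower, at 16.0% to 46.9% of wild-type. The other 4, ZNF101, ZNF14, ZNF431 and ZNF726, stayed within 2-fold. The limits of 2-fold and 8-fold were set after the values were seen.

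The largest fall was that of ZNF43 (ENSG00000198521, chromosome 19, 21804949 to 21852125, minus strand). It had 1, 1, 1 and 0 counts in knockout replicates 1, 2, 3 and 5, against 478, 447, 464 and 507 counts in wild-type replicates 1, 2, 3 and 5. Scaled to library size, the wild-type level was 701 times the knockout level (95% exact counting interval 240 to 3400, counting error only). ZNF43 was thus well expressed in wild-type, at 10.8 ± 0.691 CPM (SD, n = 4), and at the edge of detection in the knockout.

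ZNF681, whose promoter window is printed with that of ZNF43, had 0, 1, 0 and 0 counts in the knockout replicates and 51, 59, 65 and 78 counts in the wild-type ones. The ratio was 281 (interval 49.9 to 11100), a wide interval that 1 count over the knockout group sets. Without knockout replicate 2, which holds that count, the fitted log2 change was -9.06, against -7.52 with it. ZNF682 behaved alike, with 0, 1, 1 and 0 counts in the knockout and 84, 77, 81 and 91 counts in wild-type, a ratio of 185 (interval 50.8 to 1530). Its neighbour ZNF90 had 1, 0, 5 and 3 counts in the knockout against 287, 302, 330 and 350 counts in wild-type. The means of ZNF90 were 0.0461 ± 0.0461 CPM and 7.23 ± 0.426 CPM (SD, n = 4 each), and its log2 change was -7.21, or -7.92 without knockout replicate 3. No library of one group came near a library of the other for any of these genes.

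ZNF100 came next to ZNF724 in level per length in wild-type, with 0.0225 CPM per kb of exon in the knockout and 2.94 CPM per kb in wild-type. Its levels were 0.0408, 0.126, 0.230 and 0.198 CPM in the knockout and 17.8, 19.01, 19.6 and 21.3 CPM in wild-type, a log2 change of -7.00. ZNF675, known as an inhibitor of TRAF6 signalling, stood at 0.0816, 0.232, 0.125 and 0.159 CPM in the knockout and at 8.40, 10.4, 9.15 and 10.1 CPM in wild-type (log2 change -5.97). For both genes the spread within the knockout came from 2 to 11 counts a library, so the order of the knockout libraries carries little information.

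ZNF93 and ZNF91 are the members best known for silencing retrotransposons, ZNF93 acting on L1 elements and ZNF91 on SVA elements. ZNF93 had 0.0816, 0.147, 0.125 and 0.0992 CPM in the knockout, against 6.70, 6.56, 6.15 and 6.32 CPM in wild-type, a log2 change of -5.80. ZNF91 averaged 0.724 ± 0.222 CPM in the knockout and 19.4 ± 1.74 CPM in wild-type (SD, n = 4 each), a log2 change of -4.74, and kept 141 counts over the knockout group. The count table holds genes and not repeats, so the elements were not measured here. ZNF486, the last of the 8 largest falls, had 13, 10, 14 and 8 counts in the knockout and 409, 303, 480 and 394 counts in wild-type (log2 change -5.27).

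The other members that were at least 8-fold lower, ZNF253, ZNF737, ZNF626, ZNF85, ZNF493 and ZNF254, had log2 changes between -3.42 and -5.07. ZNF254, at the centromeric end of the run, had the highest knockout level of these 6, at 0.820 ± 0.0755 CPM in the knockout and 13.2 ± 1.13 CPM in wild-type. Transcripts of ENSG00000268362, a lincRNA that overlaps ZNF254 on the same strand, were at 10.8 ± 0.980 CPM and 34.8 ± 4.83 CPM, with a log2 change of -1.69. Assignment of reads to such overlapping genes is not given in the sources used here.

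The 7 intermediate members were ZNF506, ZNF430, ZNF714, ZNF708, ZNF738, ZNF257 and ZNF724. ZNF430, ZNF714, ZNF431, ZNF708 and ZNF738 stand next to each other within 359 kb, with log2 changes of -1.49, -1.17, -0.57, -2.04 and -1.91. On either side of these 5 genes, ZNF85 and ZNF493 had changes of -5.07 and -4.01. The other 3 intermediate members, ZNF506, ZNF257 and ZNF724, lie elsewhere in the run, with changes of -1.75, -2.61 and -1.09. ZNF714 had the highest level per length of all members in wild-type, at 4.85 CPM per kb of exon, and 2.16 CPM per kb in the knockout. It stood at 15.7, 17.6, 17.5 and 18.7 CPM in the knockout and 39.3, 39.1, 35.8 and 41.7 CPM in wild-type, and it made up 20.4% of the members' summed CPM in the knockout and 15.3% in wild-type. ZNF431 stood at 15.1, 15.9, 17.1 and 16.3 CPM in the knockout and at 24.4, 23.5, 22.6 and 25.1 CPM in wild-type, the smallest change of any member whose groups did not overlap. ZNF714 and ZNF431 also had the most alike promoter windows of any pair, at 91.0% identity.

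ZNF724, second in level per length, stood at 4.59, 4.91, 5.69 and 4.44 CPM in the knockout and 9.49, 10.2, 11.5 and 10.7 CPM in wild-type, a log2 change of -1.09. Only 51.3% of its 50-base transcript words were absent from the transcripts of every other gene, the lowest share among the members. ENSG00000283201, annotated as a coding gene, overlaps ZNF724 on the same strand over 27636 bases. Shared reads could therefore have entered the count of ZNF724 or been left out of it. ZNF257 was near the limit of the filter, with 6, 4, 4 and 16 counts in the knockout and 21, 48, 45 and 53 counts in wild-type. Its log2 change was -3.26 without knockout replicate 5, past the 8-fold limit, so its place among the intermediate members rests on that library.

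Within the span, 3 members did not pass the test, ZNF101 and ZNF14 at the distal end and ZNF726 deep in the run. ZNF101 had 17.3, 18.02, 17.7 and 16.5 CPM in the knockout and 17.8, 17.4, 18.9 and 16.3 CPM in wild-type (log2 change -0.02, SE 0.065). ZNF14 had 8.35, 8.95, 9.20 and 7.69 CPM in the knockout and 7.93, 7.59, 9.49 and 7.80 CPM in wild-type (log2 change 0.06, SE 0.09). ZNF726 had 6.49, 6.04, 5.75 and 5.04 CPM in the knockout and 5.78, 5.46, 5.66 and 7.21 CPM in wild-type (log2 change -0.05, SE 0.11). In all 3 genes the groups overlapped. ZNF726 starts 156 kb after ZNF681, which was nearly lost, and ends 88.2 kb before ZNF254.

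**Figure D2:**
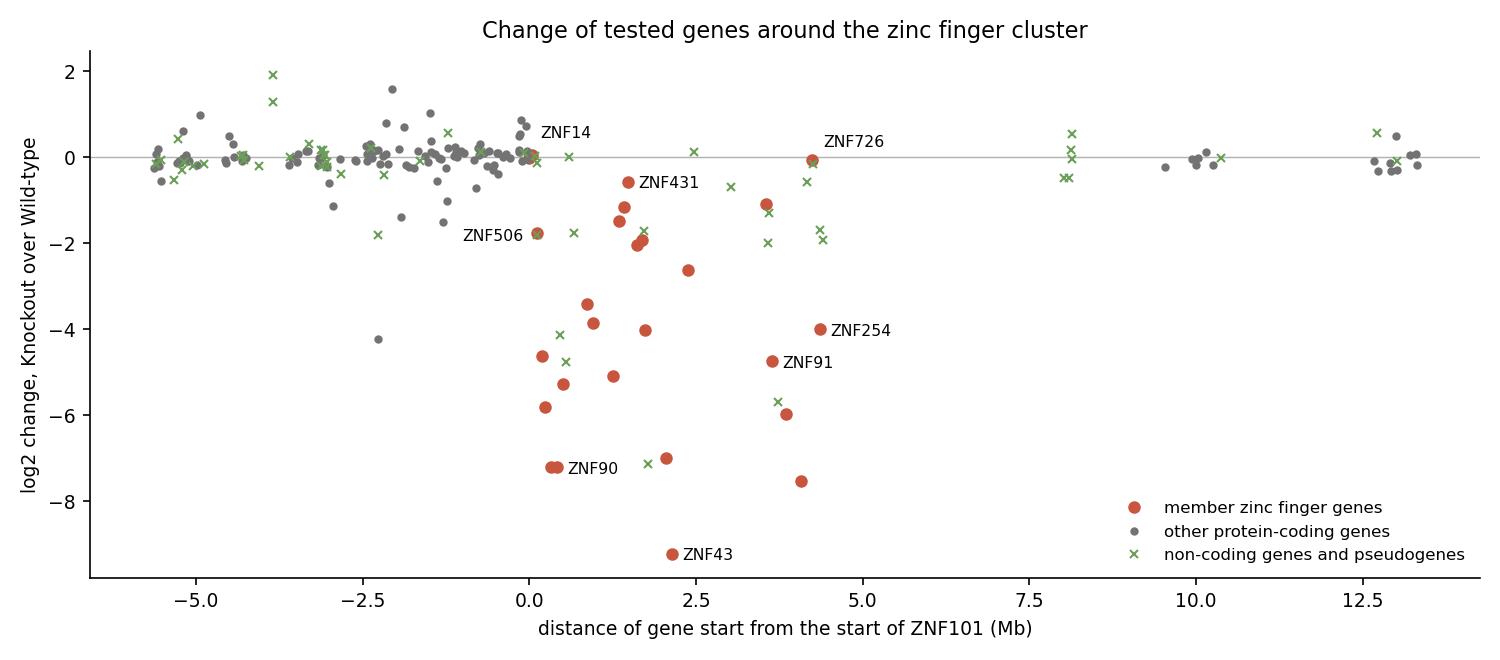
Log2 change of tested genes on chromosome 19 against the distance of the gene start from the start of ZNF101, in Mb. Members are large red points, other coding genes small grey points and non-coding genes and pseudogenes green crosses, and the members called lower lie from ZNF506 to ZNF254, with ZNF726 near 0 among them and single lower genes, such as the coding gene at -4.22, to their left.

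The remaining 11 members had too few counts to be tested, and 9 of them lie together in the middle of the run. From ZNF208 to ZNF730, ZNF257 was the only tested member. ZNF729 and ZNF99 had 0 counts in every library, which allows up to 0.0595 to 0.0632 CPM in a knockout library and 0.0634 to 0.0751 CPM in a wild-type one (3 counts). ZNF208 had 12 counts over the knockout group and 10 over wild-type, and ZNF429, ZNF98, ZNF492, ZNF723 and ZNF728 had at most 4 counts in either group. ZNF66 had 2, 1, 2 and 2 counts in the knockout against 18, 10, 26 and 9 counts in wild-type, and ZNF730 had 0, 0, 0 and 2 against 5, 10, 13 and 7, so both were lower where they could be seen. ZNF676 went the other way, with 3, 4, 4 and 5 counts in the knockout against 0, 0, 1 and 0 counts in wild-type. Its ratio was 14.4 (exact counting interval 2.24 to 605), and its knockout level of 0.0821 ± 0.0156 CPM (SD, n = 4) was near the floor.

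Features of the genes and their RNA were set beside the size of the change. Across the 26 tested members, which share libraries and a region, Spearman's rho with the log2 change was -0.15 for the gene start, -0.08 for the exon length, -0.07 for the number of C2H2 fingers and -0.11 for the share of 50-base words found in no other gene. The open reading frames held 0 to 36 fingers (median 13, n = 37), with none found for ZNF738 and 36 for ZNF208. The share of unique words ran from 51.3% to 100% among the tested members (median 95.5%), and each count can still hold reads of a near-identical copy.

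For the promoter CpG count rho was 0.46 over the 23 tested members that had a window, or 0.29 over 21 without ZNF14 and ZNF101. It was 0.37 for the wild-type level per kb of exon (n = 26), 0.17 for promoter GC content (n = 23) and -0.20 for the length of the open reading frame (n = 26). The windows of the members that stayed within 2-fold held 14 to 18 CpG dinucleotides (n = 4), those of the intermediate members 9 to 14 (n = 5) and those of members at least 8-fold lower 8 to 16 (n = 14). In the windows printed, ZNF726 held 16 CpG dinucleotides and ZNF91 held 11, and ZNF14, ZNF43 and ZNF681 held 16, 12 and 9. ZNF682, with 16 in its window, was among the largest falls, so its count lay in the range of the members within 2-fold. Among the tested members that overlap rests on ZNF682. Its window lies wholly inside the gene annotated by GENCODE, as do those of ZNF43 and ZNF254. Of the untested members, ZNF730 and ZNF492 also held 16. ZNF730 had 2 counts over the knockout group and 35 over wild-type, and ZNF492 had 4 and 1. The next highest count among members at least 8-fold lower was 12, in ZNF43. These values describe the members and were one of 8 features looked at.

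**Figure D3:**
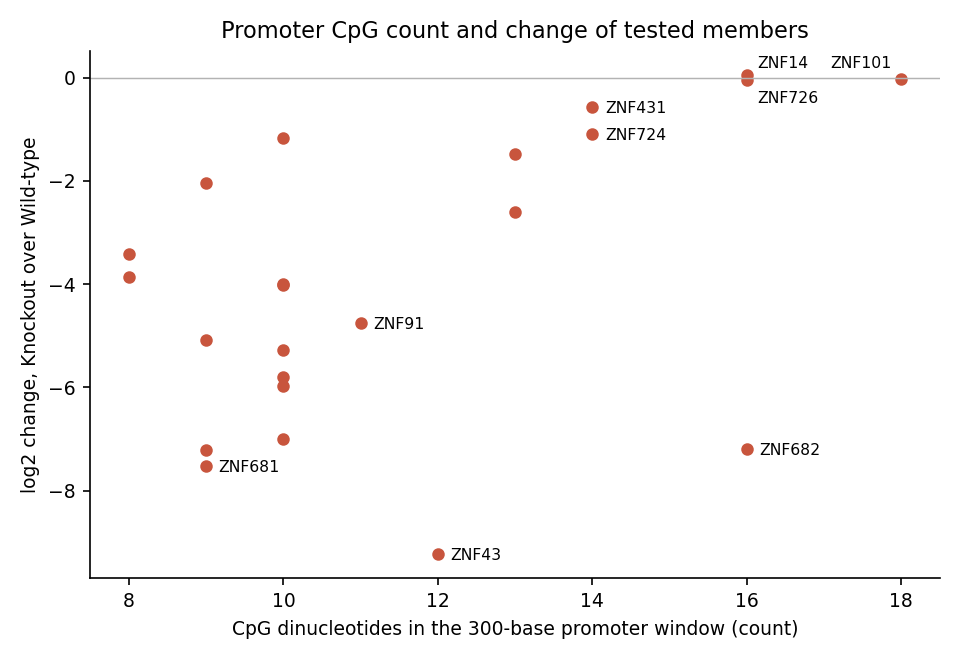
Number of CpG dinucleotides in the promoter window against the log2 change, 1 point for each of 23 tested members with a RefSeq window. ZNF14, ZNF101 and ZNF726 lie at the upper right with 16 to 18, and ZNF682 lies at the lower right with 16. The windows of ZNF682, ZNF43 and ZNF254 lie wholly inside the annotated genes.

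Among short motifs sought on both strands, CCAAT was found in 28 of the 29 windows (96.6%), against 34.6% of 35116 RefSeq windows. TCCAATCAGG, which contains CCAAT and was the 10-base word found in the most member windows (counted after they had been read), was in 25 of 29 (86.2%), against 0.347% of all windows. GGGCGG was in 72.4% of the members' windows and 45% of all. CACGTG (the E-box letters), the NRF1 motif and the ZNF143 motif were in 0 of the 29 windows, against 7.26%, 1.24% and 0.231% of all. ZNF726 and ZNF14 held CCAAT, as did ZNF43, ZNF681 and ZNF91, and the only window without it was that of ZNF682, among the largest falls. Letters found in nearly every window could not separate the members that were lower from those that were not, so nothing is read from them.

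Some genes of the region that make no protein were lower too. From the start of ZNF101 to the end of the chosen stretch, 18 non-member genes were tested, all of them non-coding genes or pseudogenes, and 12 were called lower, 0 higher and 6 did not pass, beside 23.6% called lower and 23.9% called higher of all tested genes. ZNF826P, a zinc finger pseudogene, was at 4.21 ± 0.423 CPM in the knockout and 14.2 ± 0.997 CPM in wild-type (log2 change -1.76), and ENSG00000284428, a non-coding transcript, at 1.86 and 4.58 CPM (-1.30). LINC01224, a lincRNA on the same strand whose 3′ end faces the 5′ end of ZNF91, had 5 counts over the knockout group and 258 over wild-type. ENSG00000268119 had 0 counts in every knockout library and 66 counts over wild-type. The non-members that did not pass included the processed pseudogenes PCGF7P (log2 change 0.13) and ENSG00000213985 (0.00), and LINC00663 (0.04) and ZNF56P (-0.12) beside ZNF14. ZNF56P overlaps ZNF506 on the opposite strand, yet ZNF506 had a change of -1.75, with 2.29 ± 0.292 CPM in the knockout and 7.72 ± 1.24 CPM in wild-type. These genes lie in the region chosen for its fall, so their changes too are a description.

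At the distal edge, no tested gene from 19 Mb to ZNF101 changed as much as 2-fold. Of 20 tested genes there, 3 were called lower and 4 higher (edgeR, 23.6% and 23.9% of all tested genes), with log2 changes from -0.38 to 0.86 and a median of 0.10. Those called higher included LPAR2 (0.724, adjusted p = 0.000266, edgeR) and YJEFN3 (0.535, adjusted p = 3.84e-05, edgeR). ATP13A1, the last tested gene before ZNF101, was at 111 ± 3.75 CPM in the knockout and 114 ± 2.95 CPM in wild-type. The gap from ZNF14, at 0.06, to ZNF506, at -1.75, is 52.7 kb. Further out, 21 of 90 tested coding genes from 14 to 19 Mb were called lower and 17 higher, with a median of 0.01. Of these 90, 5 were called lower by at least 2-fold (5.56%, beside 2.64% of all tested genes), and BST2, named after its values were seen, had a log2 change of -4.22. Across the centromere, 7 of 15 tested coding genes up to 33 Mb were called lower and 0 higher, with a median of -0.14 and none changed as much as 2-fold. LINC00662, the nearest tested gene on that side, had a log2 change of -0.47 (adjusted p = 9.68e-06, edgeR).

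Zinc finger genes elsewhere were called in both directions, with the share called lower from 14.9% on the long arm of chromosome 19 to 53.6% on chromosome 7. Among protein-coding ZNF genes that are not members, 12 of 42 at 19p13 were called lower and 4 higher, 20 and 25 of 134 on the long arm of chromosome 19, 15 and 6 of 28 on chromosome 7, and 52 and 43 of 184 on other chromosomes. Over all tested genes the shares were 23.6% and 23.9%. Medians were -0.04, 0.01, -0.45 and -0.02. The balance over the 388 genes turned with the scaling, from 99 lower and 78 higher here to 80 lower and 100 higher with library totals and 80 lower and 105 higher with upper-quartile scaling. In all, 6 of these 388 genes were called at least 8-fold lower, against 15 of the 26 tested members and 0.579% of all tested genes. They were named after their values were seen. ZNF736 and ZNF680, which start at 64307459 and 64519884 on chromosome 7, had log2 changes of -6.78 and -4.12. ZNF347 and ZNF665, next to each other on 19q, had changes of -4.51 and -4.26. ZNF558 at 19p13 had a change of -6.56 and ZNF334 on chromosome 20 of -3.61. ZNF347 averaged 0.653 ± 0.167 CPM in the knockout and 14.97 ± 1.16 CPM in wild-type (adjusted p = 1.91e-16, edgeR).

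Of the 388 zinc finger genes tested elsewhere, 15 were called lower by at least 2-fold (3.87%) and 6 higher. The shares over all tested genes were 2.64% and 6.72%. Genes named next had a mean log2 CPM of at least 1 over both groups. That limit drops genes nearly lost in the knockout, such as ZNF736 (0.173), ZNF558 (-0.191) and ZNF680 (0.612). Sizes under it are therefore not comparable with those of the members. The largest falls under that limit were ZNF44 (-0.94) and ZNF699 (-0.94) at 19p13, ZNF114 (-0.64) on 19q after ZNF347, ZNF777 (-0.85) and ZNF138 (-0.82) on chromosome 7, and ZNF330 (-1.07) and ZNF589 (-1.04) elsewhere. The largest rises were ZNF136 (0.35) and ZNF823 (0.27) at 19p13, ZNF331 (0.50) and ZNF350 (0.48) on 19q, ZNF12 (0.48) and ZNF316 (0.46) on chromosome 7, and ZNF300 (1.90) and ZNF311 (0.96) elsewhere. Each of these passed at an adjusted p below 0.05 (edgeR), and ZNF300 averaged 15.7 ± 0.694 CPM in the knockout and 4.21 ± 0.354 CPM in wild-type (SD, n = 4 each).

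**Figure D4:**
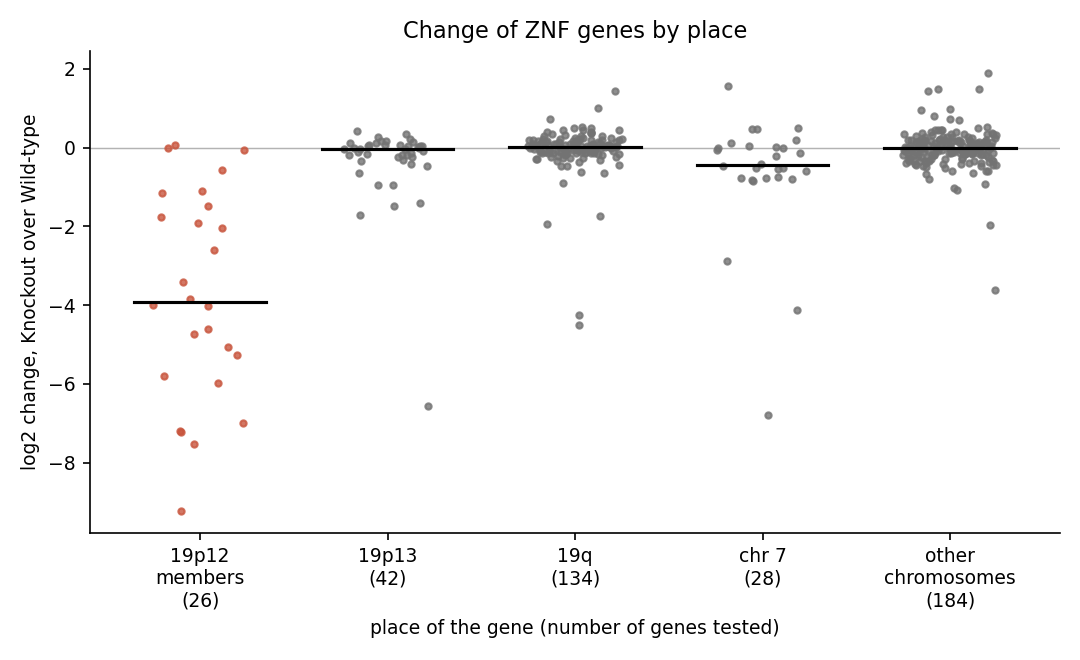
Log2 change of every tested ZNF gene by place, with the 26 members at the left and black bars at the medians. The members spread from -9.22 to 0.06, while the medians elsewhere lie between -0.45 and 0.01, with single low genes such as ZNF736 and ZNF558.

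The genes that act with KRAB zinc finger proteins or keep such loci silent were measured in the same libraries. Of a list of 30 silencing and DNA methylation genes, all tested, 12 were called lower, 4 higher and 14 did not pass, against 23.6% and 23.9% of all tested genes, with no change as large as 2-fold. With library totals or upper-quartile scaling, 10 were called lower and 6 higher. TRIM28, the corepressor, was at 495 ± 6.42 CPM in the knockout and 520 ± 28.8 CPM in wild-type (log2 change -0.07, adjusted p = 0.246, edgeR). SETDB1 was at 32.7 ± 1.202 CPM and 34.5 ± 0.857 CPM (-0.08, adjusted p = 0.228), and ZNF274, a zinc finger protein that brings SETDB1 to zinc finger genes, at 26.1 ± 0.930 CPM and 26.8 ± 1.98 CPM (-0.04, adjusted p = 0.627). DNMT1, the maintenance DNA methyltransferase, was at 386 ± 8.06 CPM and 381 ± 21.3 CPM (0.02, adjusted p = 0.812), while its partner UHRF1 fell to 118 ± 1.95 CPM in the knockout, against 160 ± 6.65 CPM in wild-type (-0.44, adjusted p = 4.89e-08). TET2, which oxidises methylcytosine, had the largest fall of the list, at 22.4 ± 3.14 CPM in the knockout and 43.3 ± 2.596 CPM in wild-type (-0.95). Others called lower included SMARCAD1 (-0.931, adjusted p = 2.115e-10, edgeR) and TASOR (-0.415, adjusted p = 1.665e-06, edgeR). HDAC1, a histone deacetylase, had the largest rise, at 155.9 ± 4.41 CPM and 131.5 ± 2.64 CPM (0.25, adjusted p = 6.87e-05). The part of these genes in the fall of the members was not tested.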

How the data were processed

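Whole-number counts per Ensembl gene were deposited for 8 samples, together with variance-stabilized values that the authors gave on a log2 scale. Per the labels' protocols, ribosomal RNA was removed and libraries were stranded. Tools named in the submitters' processing notes are Subread 1.6.2 with featureCounts, STAR 2.6.0c and DESeq2 1.23.10, on hg38. Annotation release, strand setting and treatment of multi-mapped reads are not given in the sources used here, and reads shared by near-identical genes can move counts between them.

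Groups and columns were matched by sample title. Of 60646 genes, 60333 matched a symbol table and 58459 matched GENCODE 29 on GRCh38 (the hg38 build), which gave coordinates and exon lengths. The comparison of Knockout with Wild-type used edgeR 4.0.16 under R 4.3.3 on those counts (filterByExpr, TMM scaling, robust quasi-likelihood fit, group as the single term), with Benjamini-Hochberg adjustment over all 19877 tested genes. The steps were tested on simulated data. Alternatives used limma 3.58.1 and DESeq2 1.42.0. Replicates of a group differed beyond sampling noise (chi-square per degree of freedom 3.41 to 18.4). Same-numbered samples deviated together (r = 0.376, 0.154, 0.153 and 0.391 across 13212 genes, while differently numbered pairs gave -0.301 to 0.0596), all above 0.1, so the numbers can pair the samples. The values and calls given come from the fit without that pairing, and a fit with the replicate number as a block was run beside it. Counting intervals (95%) and the floor of 3 counts cover counting error only.

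Sequence windows are from RefSeq. Fingers were counted in the longest open reading frame of GENCODE transcripts, and 50-base words were sought in all GENCODE transcripts on both strands. The members and lists were chosen with earlier results of these data known. Named genes followed a fixed rule (the 8 largest falls, members above -1, the 3 highest per length, set genes of the silencing list, and the 2 largest changes each way elsewhere by place). The ZNF91 promoter, the 6 zinc finger genes elsewhere at least 8-fold lower, LINC01224, ENSG00000268119, LINC00663, ZNF56P, ENSG00000213985 and BST2 fall outside it and were chosen after their values were seen. SMARCAD1 and TASOR of the silencing list also fall outside that rule.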

Additional observations from a re-analysis of the deposited data

Results flagged for a closer look

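Among 54 groups of 4 values (the tested members and DOT1L), 5 held a value that stood apart from the other 3 by more than Dixon's 95% critical value, and chance gives about 1 in 20. ZNF43 was at 0 CPM in knockout replicate 5, against 0.0204 to 0.0211 CPM in the other knockout libraries, a gap of 1 count. ZNF43 was also at 9.81 CPM in wild-type replicate 3, against 11.05 to 11.3 CPM in the other wild-type libraries. ZNF681 was at 0.0211 CPM in knockout replicate 2, where 1 count was the only one of its group. ZNF257 was at 0.317 CPM in knockout replicate 5, against 0.0836 to 0.123 CPM in the others, and ZNF254 at 0.932 CPM in the same library, against 0.773 to 0.800 CPM.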

How the results depend on the processing

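The 23 members called lower were the same 23 with library totals, upper-quartile scaling, the replicate number as a block (also 23 lower), the deposited variance-stabilized values and each sample left out, though ZNF66 was added without any 1 knockout sample or wild-type replicate 5, and no called member changed sign. Where a mean of 1 log2 CPM was required, 9 were called, because 14 of the 23 were no longer tested. DESeq2 and the fit without a filter each called 25 lower (ZNF66 and ZNF730 added) and 1 higher (ZNF676). The members' median was -3.70 with DESeq2 (30 tested), -2.62 without a filter (35 tested), -1.30 where a mean of 1 log2 CPM was required (12 tested), -1.42 on the variance-stabilized scale, which compresses low values, and -3.65 to -3.96 with a sample left out. The block gave 10472 calls over all genes (9458 without it), 110 lower and 86 higher among other zinc finger genes (99 and 78) and 13 lower and 4 higher in the silencing list (12 and 4). Higher calls made up 50.3% of all calls with trimmed-mean scaling, 61.2% with library totals and 61.9% with upper-quartile scaling. With 0 to 3 knockout counts the size of the fall of ZNF43, ZNF681 and ZNF682 is limited by depth.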
